A study of Mus musculus with 57 samples.

Results

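The carboxylesterases described here are 10 genes of mouse liver, Ces1b, Ces1c, Ces1d, Ces1e, Ces1f, Ces1g, Ces2a, Ces2c, Ces3a and Ces3b, taken by symbol from the 54307 genes of the deposited table through their Ensembl gene IDs. All 10 were found and all 10 passed the filter on low counts in each comparison below. RNA sequencing covered perfused liver, from the left lateral lobe, of 57 wild-type male C57BL/6JJcl mice, 6 weeks old before 1 week of acclimatisation. Each animal was fasted for 12 h before dosing and killed 24 h after it. By gavage, 4 mice received alpha-naphthyl isothiocyanate (ANIT, a bile duct toxicant), 6 acetaminophen (APAP), 7 4,4'-methylene dianiline (MDA, also toxic to bile ducts) and 5 thioacetamide (TAA), against 13 mice given 0.5% methylcellulose (Ctrl). By intraperitoneal injection, 7 mice received carbon tetrachloride (CCl4) and 4 galactosamine (GAL), against 2 mice given saline (CIP). By tail vein, 7 mice received concanavalin A (ConA, a lectin that activates T cells), against 2 mice given saline (CIV). Corn oil was a vehicle for some compounds according to the labels, and no corn oil group is among these samples, so that vehicle and compound cannot be told apart where it was used. The amount of each compound is not given in the sources used here.

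Carboxylesterases are serine hydrolases, held for the most part in the lumen of the hepatocyte endoplasmic reticulum, that split ester, amide and thioester bonds. They activate ester prodrugs, detoxify ester-containing drugs and insecticides, and hydrolyse stored lipid esters. Class 1 enzymes are the mouse relatives of human CES1 and class 2 enzymes those of human CES2; the mouse carries many more copies of each class than the human, and one of them, Ces1c, is secreted into plasma. On chromosome 8 the Ces1 genes stand side by side, and the Ces2 and Ces3 genes form a further row of neighbours on the same chromosome.

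Levels are the deposited estimated counts as CPM (each library scaled to a common total with its TMM factor), which behave as amounts per transcript length, so that genes as well as mice can be set side by side. Library totals ran from 13826343 to 35075809 with a median of 21532116, and the mitochondrial share from 5.11% to 39.3%. ConA livers had a median mitochondrial share of 24.4% (14.6% to 39.3%), against 14% in Ctrl (7.48% to 21.8%) and 6.79% to 25.4% in the 2 CIV mice, and its part in the ConA results was not tested. Over 8089 genes, 6 of 57 libraries resembled the mean of another group more than that of their own. For vehicle livers, only the compound groups counted as other groups. The library labelled ANIT 1 correlated at 0.275 with the other ANIT livers and at 0.667 with the MDA livers, while the library labelled MDA 1 correlated at 0.275 with the other MDA livers and at 0.575 with the ANIT livers. The library labelled APAP 1 gave -0.114 with its own group and 0.532 with ConA. Whether the labels of ANIT 1 and MDA 1 were exchanged was not tested, and calls of Ces1b and Ces1d with MDA and of Ces1g and Ces2a with ANIT differ with and without them. These 3 libraries were kept in the values below; the members' changes, counts and summed level with ANIT, APAP or MDA are also given without them, and the shares for the genes named, while single genes of other lists and the levels of marker lists are not. The other 3, labelled MDA 2, APAP 2 and APAP 6, differed by less, with 0.474 against 0.479, 0.168 against 0.190 and 0.206 against 0.285. In bulk liver, fewer cells of a type and less RNA per cell cannot be told apart.

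In the 17 vehicle livers the 10 genes covered a wide range of levels per length. Ces3a, a class 3 esterase, was the most abundant at 1657 ± 210.2 CPM (SD, n = 17), and Ces1c, the plasma esterase, followed at 1477 ± 179. Next came Ces1f at 448 ± 54.1 and Ces1d, a triacylglycerol hydrolase that supplies lipid for very-low-density lipoprotein, at 405 ± 82.1. Ces3b, Ces2a and Ces1g lay at 274 ± 100.1, 233 ± 43.99 and 160.2 ± 25.3 CPM. The lowest levels were those of Ces1e, also known as egasyn, at 95.3 ± 15.3, Ces1b at 62.05 ± 6.99 and Ces2c at 41.5 ± 9.97. Of the 9 steps in this order, those from Ces1c to Ces1f and from Ces1e to Ces1b were free of overlap between single mice; the other neighbours overlapped. Ces3b varied most between vehicle mice, with a coefficient of variation of 36.5%, against 11.3% for Ces1b at the other end.

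Reads of near-identical copies are divided by an estimate, which bears on some members more than others. Of the stretches of 31 bases in the Ces2c transcript, 53.8% also occur in another carboxylesterase transcript, most of them in the pseudogene Ces2d-ps. The share is 42.6% for Ces3a and 36.1% for Ces3b, all of it shared between the 2, and 23.1% for Ces1b and 26.6% for Ces1c. For Ces1d, Ces1e, Ces1f, Ces1g and Ces2a it lies between 4.91% and 9.48%. Levels of Ces2c, Ces3a and Ces3b are therefore uncertain in how reads were split between copies.

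The start regions of 2 pairs of genes of the same class are shown because the genes of each pair differ in the values below: Ces1b with Ces1c, and Ces2a with Ces2c. RefSeq promoters (build GRCm38.p6, 250 bases before to 50 after the start, written 5′ to 3′ on the gene's strand) were matched for 7 of the 10 genes; Ces1d, Ces1f and Ces3a had no entry. Capitals mark matches on either strand to 4 motifs searched, which are TATAAA for the core of a TATA box, GTTAAT for part of an HNF1 site, AGTTCA for part of a nuclear receptor site and CAAAGT for the core of an HNF4 site. Of all 32851 promoters of this length, 13.6%, 7.10%, 14% and 14.4% hold them, in that order. Ces1b at chr8:93079891-93080190 (minus strand, the first of 2 entries), Ces1c at chr8:93131234-93131533 (minus strand), Ces2a at chr8:104733753-104734052 (plus strand) and Ces2c at chr8:104846818-104847117 (plus strand) read:
Ces1b: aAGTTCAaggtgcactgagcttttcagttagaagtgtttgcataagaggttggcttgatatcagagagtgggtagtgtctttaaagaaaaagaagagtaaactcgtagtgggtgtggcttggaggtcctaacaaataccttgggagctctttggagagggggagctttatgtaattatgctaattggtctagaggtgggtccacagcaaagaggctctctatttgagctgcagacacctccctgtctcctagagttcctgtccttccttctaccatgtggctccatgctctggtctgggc
Ces1c: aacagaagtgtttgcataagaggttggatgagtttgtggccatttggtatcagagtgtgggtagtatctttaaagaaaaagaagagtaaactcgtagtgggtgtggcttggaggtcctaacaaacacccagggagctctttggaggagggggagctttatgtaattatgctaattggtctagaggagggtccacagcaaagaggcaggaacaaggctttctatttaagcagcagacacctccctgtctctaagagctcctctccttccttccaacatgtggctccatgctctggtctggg
Ces2a: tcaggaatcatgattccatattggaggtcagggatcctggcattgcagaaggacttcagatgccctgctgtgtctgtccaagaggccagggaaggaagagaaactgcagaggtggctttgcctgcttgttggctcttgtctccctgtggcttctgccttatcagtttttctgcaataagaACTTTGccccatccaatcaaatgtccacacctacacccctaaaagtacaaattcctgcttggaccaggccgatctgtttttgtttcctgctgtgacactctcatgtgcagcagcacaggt
Ces2c: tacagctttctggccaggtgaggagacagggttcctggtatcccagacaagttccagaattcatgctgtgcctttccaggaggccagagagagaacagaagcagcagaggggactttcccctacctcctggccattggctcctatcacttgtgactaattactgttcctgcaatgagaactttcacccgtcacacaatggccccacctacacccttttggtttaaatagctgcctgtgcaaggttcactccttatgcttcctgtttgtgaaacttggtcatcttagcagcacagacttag
Ces1b and Ces1c were 85% identical, with an unbroken shared run of 58 bases (65% for the second Ces1b entry, with the same run), and Ces2a and Ces2c were 67% identical, with a longest run of 11. The other pairs of different genes lay between 49% and 58.3%. Ces1b held 1 match to the nuclear receptor motif in both entries and Ces2a 1 to the HNF4 core, read on the opposite strand, while Ces1c and Ces2c held none of the 4. Among the other entries, Ces1g and Ces3b each held 1 TATA box core, Ces3b held 1 HNF1 match as well, and Ces1e held none. A match is a description of these letters and not a site of binding.

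**Figure D1:**
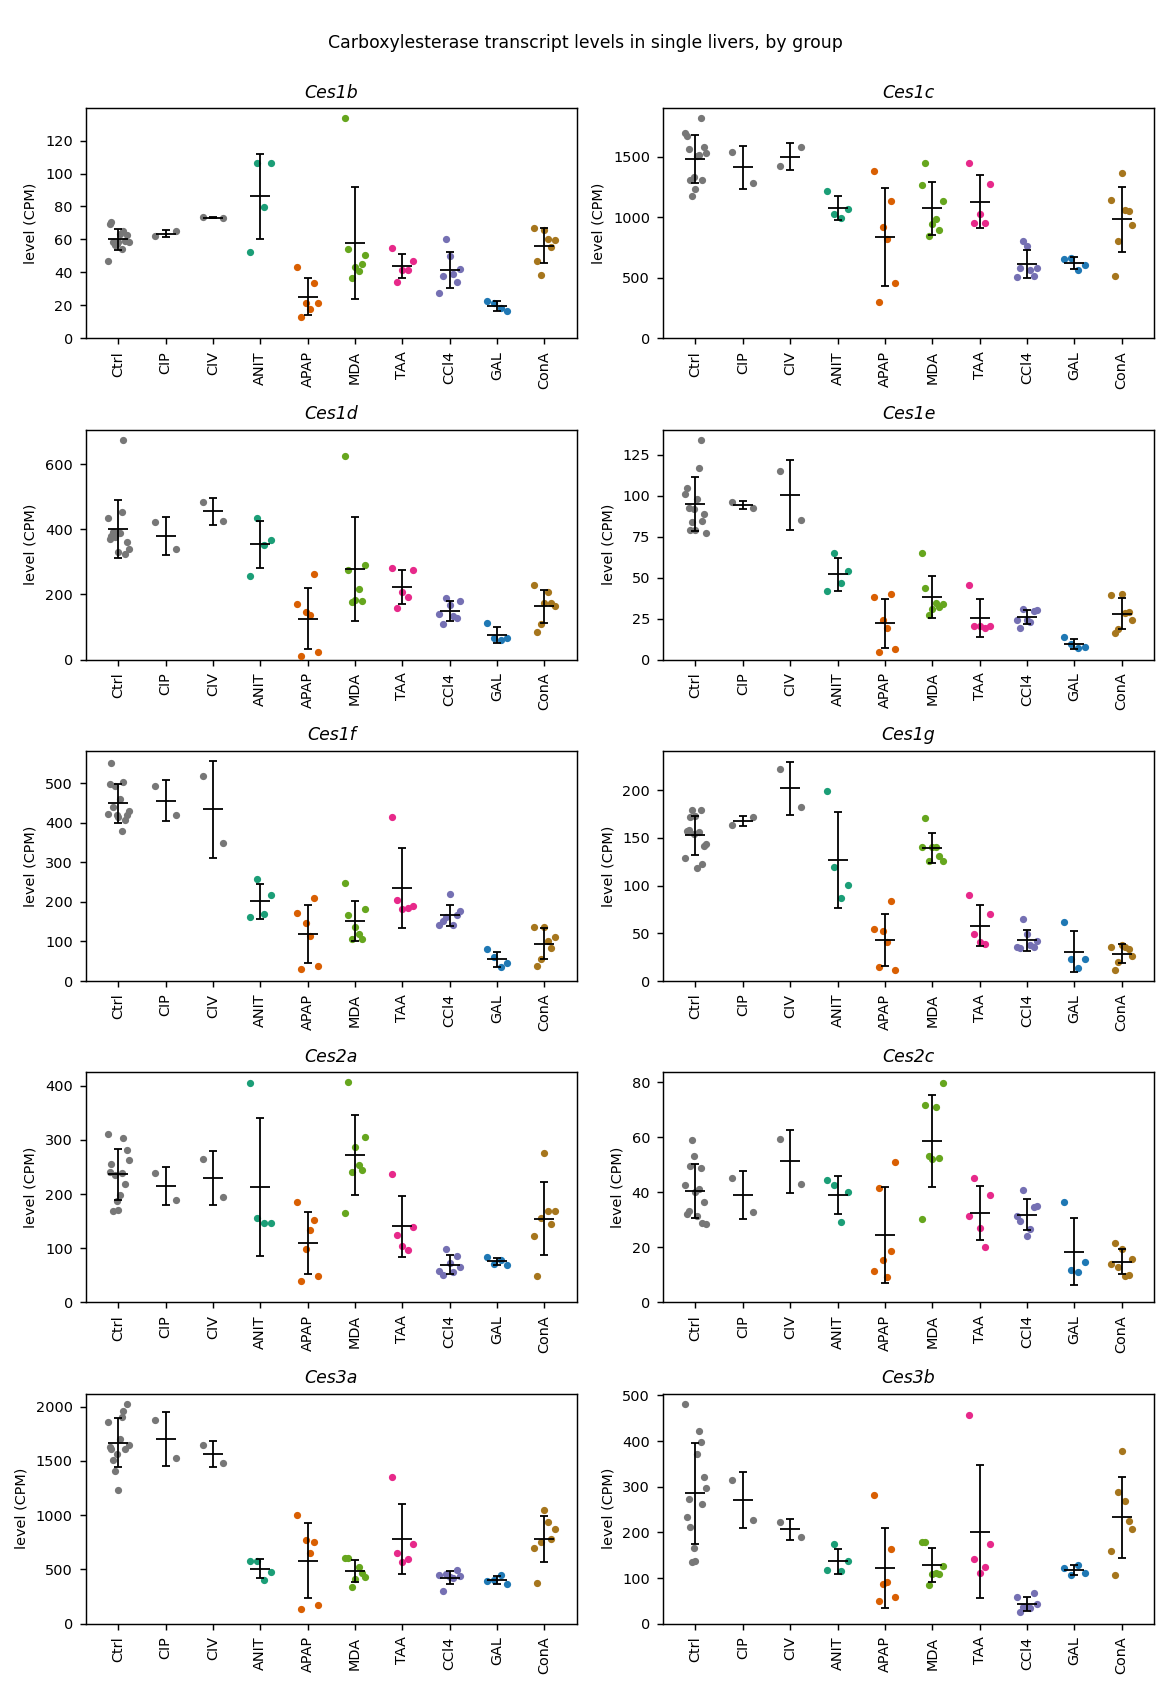
Level of each of the 10 genes (CPM, linear axes from 0) in single livers, by group. Points are mice, horizontal bars are means and whiskers are 1 SD; the Ces1e, Ces1f and Ces3a panels show lower levels with each compound, while the group mean is highest with ANIT for Ces1b and with MDA for Ces2c.

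Route of the vehicle was compared first. edgeR's quasi-likelihood test called 0 of 10 members between CIP and Ctrl (0 at an unadjusted p under 0.05, 0 by DESeq2), where 0.0131% of all genes were called, and 0 of 10 between CIV and Ctrl (2 at an unadjusted p under 0.05, 0 by DESeq2), where 0.0263% were called. At that unadjusted p, 570 of 15219 genes passed for CIP and 580 of 15199 for CIV. Each saline group holds 2 mice. In the CIV mice Ces1b read 73.4 and 72.99 CPM and Ces1g 222 and 183, above the highest Ctrl mouse of each gene (70.8 and 179.6). Within the gavage vehicle, Ces3b ran from 371 to 481 CPM in the mice numbered 1 to 4 and from 136 to 322 in those numbered above 4, without overlap. That was the 1 member called between those sets (log2 difference 0.90 ± 0.21, SE, adjusted p = 0.0423; 0.603% of genes were called higher), and the call was lost when any of those 4 mice was left out, under scaling by library totals and without the filter on low counts, while DESeq2 called 3 members. Cell type markers differed between the same sets of Ctrl mice. Of 5 Kupffer cell markers 3, and of 4 tested monocyte and macrophage markers 2, were called lower in the mice numbered 1 to 4 (median log2 difference over each list -1.02 and -1.71; 1.73% of genes were called lower), while 0 of the hepatocyte, pericentral and periportal markers were called (medians 0.22, 0.16 and 0.16). The part of these markers in the Ces3b difference was not tested.

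All 7 compounds went with a lower summed level of the 10 transcripts. The sum was 4854 ± 555 CPM (SD, n = 17) in vehicle livers, 2796 ± 291 with ANIT, 2682 ± 566 with MDA, 2870.3 ± 902 with TAA and 2536 ± 687 with ConA. With TMM factors the mean was lowest with GAL at 1429 ± 113 and CCl4 at 1612 ± 213. Each mouse of every compound group but TAA lay below every vehicle mouse in this sum. With APAP it was 2008 ± 1065, the widest spread of any group, from 647 to 3342 CPM, and the lowest and second lowest livers were mice 11 and 8. One TAA liver, mouse 1, reached 4405 CPM and lay among the vehicle mice. With mouse 1 of each group left out the sum was 2702 ± 270.1 with ANIT, 1741 ± 940.1 with APAP, 2552 ± 493 with MDA and 2487 ± 324 with TAA. The order of the compounds depended on scaling. With library totals the vehicles stood at 4727 ± 613 CPM, ConA was lowest at 1655 ± 369, and GAL at 2375 ± 306 lay above APAP (2100.2 ± 969), CCl4 (2217 ± 319.8) and ANIT (2311 ± 182), with MDA at 2469 ± 430.4 and TAA at 2763 ± 438; every compound mouse, TAA 1 included, then lay below every vehicle mouse.

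**Figure D2:**
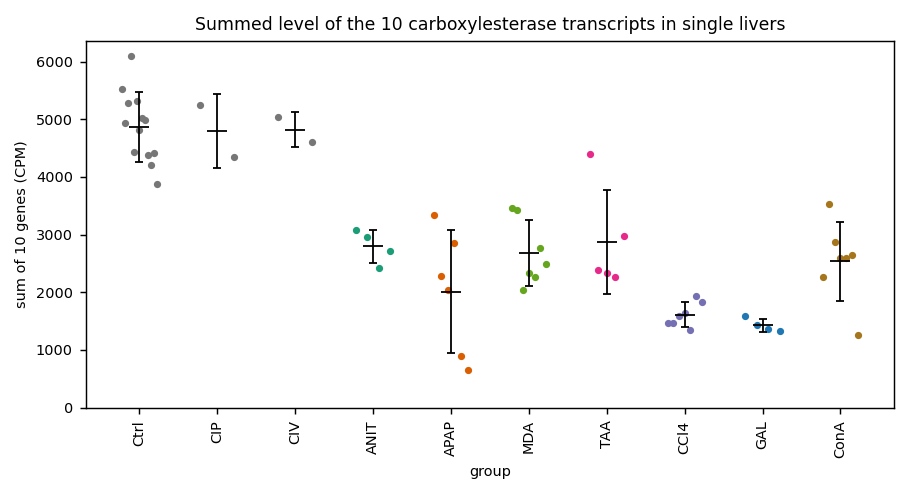
Summed level of the 10 genes (CPM, linear axis from 0) in each liver, by group; bars are means and whiskers 1 SD. The GAL and CCl4 means sit lowest, APAP livers spread from 647 to 3342, and 1 TAA liver reaches 4405.

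Counts of calls per compound are set against its route vehicle, with the share of all tested genes called in the same direction beside each. GAL called 9 of 10 members lower (15.7% of genes) with a median log2 change of -1.95 over the members and 0.08 over all genes. CCl4 called 8 lower (15.6%; medians -1.55 and 0.10), ConA 6 lower (17.3%; -1.22 and 0.03) and none of these 3 called any member higher (12.8%, 18% and 16.8% of genes). APAP called 9 lower (14.6%; -1.34 and 0.07) and TAA 8 lower (24%; -0.76 and 0.03), again with 0 members higher (17.3% and 26.4%).

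ANIT and MDA were the compounds with a member called higher, 1 each. ANIT called 5 members lower (14.2%) and 1 higher (14%), with a median of -0.37 against -0.01 for all genes. MDA called 5 lower (16.4%) and 1 higher (17.4%), with medians of -0.48 and 0.03. Without the libraries labelled ANIT 1, APAP 1 and MDA 1, ANIT called 7 lower (13.9%) and 1 higher (13.5%), MDA 7 lower (17%) and 1 higher (17.8%), and APAP 9 lower (14.5%).

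Scaling bore on the size of these changes more than on their direction. Library totals in place of TMM factors shifted the median of all genes by 0.76 on the log2 scale for GAL, 0.43 for CCl4, -0.59 for ConA, -0.22 for ANIT and 0.16 for APAP, and by less than 0.1 for MDA and TAA. Genes called higher then numbered 5515 of 6359 called with GAL (1981 of 4416 with TMM), 4565 of 5665 with CCl4 (2759 of 5152), 1101 of 4853 with ConA (2381 of 4827), 822 of 3473 with ANIT (1965 of 3967) and 2937 of 4050 with APAP (2407 of 4436). Among called member values 1 changed sign, Ces2c with CCl4 against all vehicles, from -0.43 to 0.09 (adjusted p = 0.64). Among values not called, Ces2c with CCl4 against CIP went from -0.30 to 0.12 and Ces3b with ConA against CIV from 0.20 to -0.50. With GAL against CIP the calls of Ces1c (-0.49), Ces1g (-1.72) and Ces3b (-0.52) were lost, and with ConA against CIV Ces1b (-0.96), Ces1c (-1.23) and Ces2a (-1.25) were called lower.

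Every compound mouse lay below every route vehicle mouse for 9 members with GAL (23.9% of genes), 9 with CCl4 (18.5%), 8 with ConA (20.5%), 6 with APAP (4.68%) and 3 each with ANIT (4.93%), MDA (3.07%) and TAA (9.85%), where groups of 2 vehicle mice separate more readily than the 13 Ctrl mice. These counts rested in part on single libraries: they were 7 (13.9% of genes) without TAA 1, 5 (8.05% of genes) without ANIT 1, 8 (5.66% of genes) without APAP 1 and 4 (4.88% of genes) without MDA 1, and leaving out any other 1 compound mouse moved a count by at most 1. The 4 gavage comparisons share the 13 Ctrl mice, and CCl4 and GAL share the 2 CIP mice.

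Against all 17 vehicle mice, which include each route vehicle, the tests had more controls. APAP, CCl4 and GAL then called all 10 members lower (15.3%, 27.2% and 27.5% of genes), TAA 8 (24.5%), ConA 8 (33.7%) and MDA 6 (17.1%), while ANIT stayed at 5 (14.5%). Genes called higher in the first 5 of these made up 18.1%, 26.2%, 25.1%, 25.2% and 34.3%, with 0 members among them. ANIT and MDA again called 1 member higher (13.5% and 17.2%). Without the 3 libraries ANIT called 7 lower (14.2%) and 1 higher (12.8%), MDA 7 lower (17.3%) and 1 higher (17%), and APAP 9 lower (14.5%), Ces2c no longer among them. Library totals changed some of these calls. GAL then called 8 lower, without Ces2c (-0.39, adjusted p = 0.247) and Ces3b (-0.42, adjusted p = 0.103), CCl4 8, without Ces1b and Ces2c, and APAP 9, without Ces2c (-0.53, adjusted p = 0.209). Genes called higher then numbered 8345 of 10103 called with GAL (3825 of 8014 with TMM). They were 7149 of 8885 with CCl4 (3722 of 7582) and 3048 of 4324 with APAP (2583 of 4774). ConA called all 10 lower, with Ces1b (-0.68, adjusted p = 0.000388) and Ces3b (-0.81, adjusted p = 0.000558) added. Of 13805 genes tested with ConA, 9359 were then called, 2349 of them higher (9384 and 4730 with TMM). ANIT called 6 lower, Ces1g (-0.60, adjusted p = 0.0397) added, and neither ANIT nor MDA called a member higher. Genes called higher were 846 of 3811 called with ANIT (1946 of 4043 with TMM) and 1575 of 3847 with MDA (2387 of 4759).

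**Figure D3:**
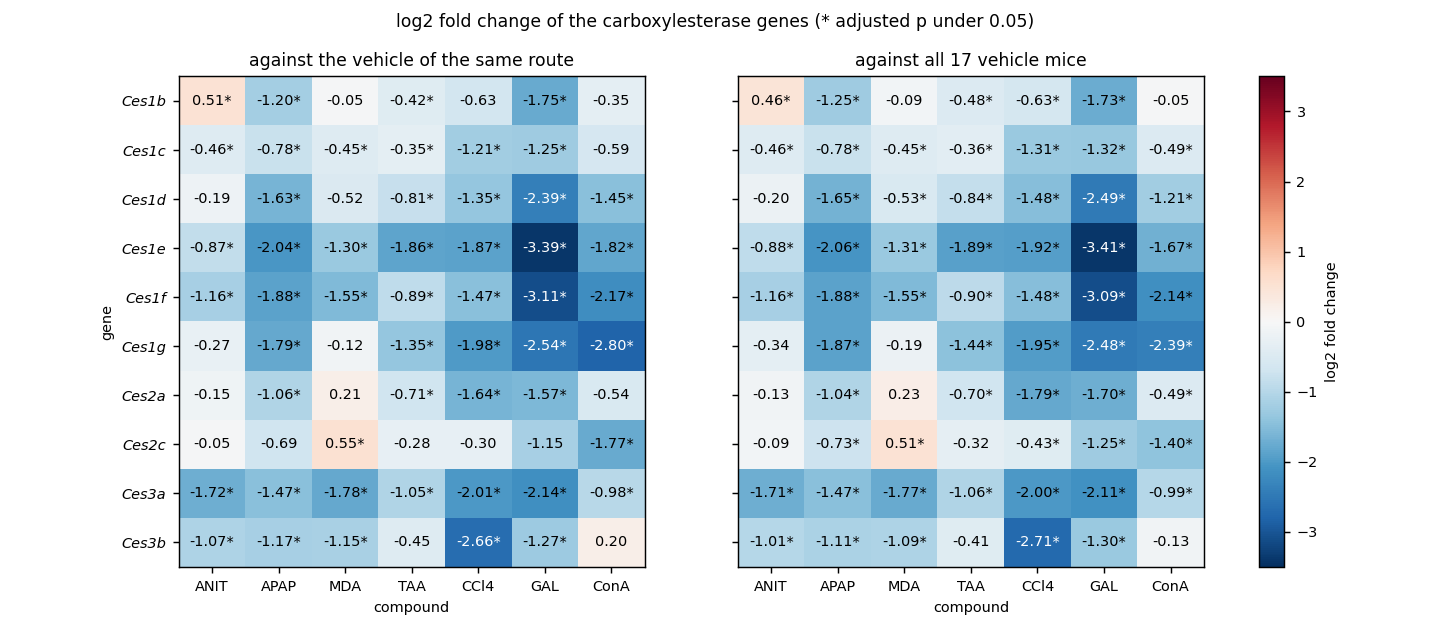
log2 fold change of each gene (vertical) with each compound (horizontal), against the vehicle of its route (left) and against all 17 vehicle mice (right); colour gives the size, blue lower and red higher, and an asterisk marks an adjusted p under 0.05 in edgeR. Ces1e, Ces1f and Ces3a carry an asterisk and a negative value with each compound.

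Ces1e, Ces1f and Ces3a were called lower with each of the 7 compounds. Ces1e binds and retains beta-glucuronidase in the endoplasmic reticulum. It stood at 77.4, 92.1 and 134 CPM (lowest, median and highest) in Ctrl mice, at 96.2 and 92.6 in CIP and at 115 and 85.4 in CIV. With GAL the 4 livers gave 13.6, 9.38, 6.97 and 7.75 CPM. Every GAL liver lay below every vehicle mouse, and the fall from CIP was 10.5-fold (log2 -3.39 ± 0.27, adjusted p = 0.00208). Lowest, median and highest values were 19.4, 24.2 and 31.1 CPM with CCl4, 16.1, 28.7 and 40.1 with ConA, 4.89, 21.9 and 40.2 with APAP and 27.1, 34.1 and 64.97 with MDA. TAA gave 45.7, 20.6, 20.4, 19.2 and 20.8 CPM and ANIT 42.1, 65.1, 47.01 and 54.3. In each group every compound mouse lay below every mouse of its route vehicle. The log2 changes were -1.87 ± 0.15 with CCl4, -1.82 ± 0.33 with ConA, -2.04 ± 0.35 with APAP, -1.86 ± 0.21 with TAA, -1.30 ± 0.16 with MDA and -0.87 ± 0.15 with ANIT. On leaving out the 3 libraries, the APAP, MDA and ANIT values were -2.30, -1.49 and -0.78.

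Ces1f, a class 1 esterase, read 380.0, 431 and 552 CPM in Ctrl mice, 493 and 419 in CIP and 519 and 348 in CIV. GAL livers gave 80.3, 59.8, 36.5 and 44.98 CPM and ConA livers 37.7, 101 and 137. These were its lowest groups, with falls of 8.65-fold from CIP (adjusted p = 0.00237) and 4.49-fold from CIV (adjusted p = 0.0027). APAP gave 29.6, 131 and 209.7 CPM, MDA 106, 136 and 247 and CCl4 141, 161 and 219.5. ANIT gave 163, 257, 168 and 217, and none of these 4 groups overlapped its route vehicle. TAA gave 414, 204, 182, 184 and 189.7, where mouse 1 alone fell within the Ctrl range. The log2 changes ran from -0.89 ± 0.17 with TAA through -1.16 ± 0.12 with ANIT, -1.47 ± 0.15 with CCl4 and -1.55 ± 0.15 with MDA to -1.88 ± 0.31 with APAP. When the 3 libraries were left out, ANIT, MDA and APAP gave -1.08, -1.72 and -2.05.

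Ces3a read 1229.8, 1631 and 2023 CPM in Ctrl mice, 1879 and 1523 in CIP and 1645 and 1478 in CIV. GAL livers gave 392, 405, 451 and 367 CPM and CCl4 livers 304, 440.1 and 492. Both groups lay below all vehicle mice, 4.40-fold (adjusted p = 0.00208) and 4.02-fold (adjusted p = 1.51e-05) under CIP. ANIT gave 577, 578, 399.9 and 477 and MDA 335, 465 and 607, again without overlap. Their log2 changes, -1.72 ± 0.14 and -1.78 ± 0.13, were the most negative of any member with these compounds, and stood at -1.79 and -1.85 without the 3 libraries. APAP gave 139, 702 and 1003 CPM (log2 -1.47 ± 0.32; -1.74 without the 3 libraries). TAA gave 1347, 648, 572, 594 and 736 (log2 -1.05 ± 0.18), with mouse 1 inside the Ctrl range. ConA gave 377, 776 and 1043 (log2 -0.98 ± 0.31, adjusted p = 0.0324). That last call was lost when either CIV mouse was left out (adjusted p = 0.158 without CIV 7 and 0.0873 without CIV 8), and against all 17 vehicle mice the adjusted p was 7.14e-07.

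Ces1g and Ces1d, both enzymes of lipid handling in hepatocytes, fell with 5 compounds. Ces1g, which is known to limit fatty acid synthesis and lipoprotein output, read 118, 156 and 179.6 CPM in Ctrl mice, 164 and 171 in CIP and 222 and 183 in CIV. ConA livers gave 11.4, 33.2 and 37.9 CPM, GAL livers 61.97, 22.9, 14 and 23.2 and CCl4 livers 34.9, 38.1 and 64.9. The ConA value was 6.97-fold below CIV (log2 -2.80 ± 0.35, adjusted p = 0.000318), the most negative of any member with ConA. GAL and CCl4 gave log2 -2.54 ± 0.53 (adjusted p = 0.0167) and -1.98 ± 0.20 (adjusted p = 8.22e-05). The GAL call against CIP was lost without GAL 8, CIP 7 or CIP 8 in turn (adjusted p 0.0514, 0.0766 and 0.0876), and it was 9.22e-08 against all 17 vehicles.

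By gavage, Ces1g was called lower with APAP and TAA and not with MDA or ANIT. APAP gave 11.4, 46.7 and 83.7 CPM and TAA 89.97, 49.7, 41.3, 39.3 and 70.1, both groups wholly below Ctrl (log2 -1.79 ± 0.31 and -1.35 ± 0.18). MDA gave 126, 140.3 and 171, within the Ctrl range (log2 -0.12, 95% interval -0.30 to 0.06, not called). ANIT gave 199, 119.6, 87.4 and 101 in mice 1 to 4, not called at log2 -0.27 (adjusted p = 0.251). The library labelled ANIT 1 was the one above the Ctrl mice, and without it the value was -0.58 (adjusted p = 0.00424). For APAP and MDA the values without the 3 libraries were -1.91 and -0.13.

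Ces1d read 323, 379.7 and 673 CPM in Ctrl mice, 421 and 338 in CIP and 484 and 426 in CIV. GAL livers gave 112, 67.2, 58.9 and 66.2 CPM, CCl4 livers 109, 139 and 189 and ConA livers 84.1, 174 and 228. All 3 groups lay below their route vehicle, by 5.24-fold, 2.56-fold and 2.74-fold (adjusted p = 0.00316, 0.000406 and 0.00625). The ConA call was lost without CIV 7 (adjusted p = 0.0516). APAP gave 12.5, 142 and 262 CPM, in which mice 8 and 11 stood at 24.1 and 12.5 and the other 4 at 138 or more. TAA gave 279.8, 159, 208, 192 and 277. Both lay below Ctrl (log2 -1.63 ± 0.42 and -0.81 ± 0.17). ANIT gave 257, 435, 353 and 369 CPM and did not pass (log2 -0.19, 95% interval -0.51 to 0.13; -0.06 without ANIT 1), but was called with the range of numbers as a covariate (-0.47, adjusted p = 0.0469). MDA gave 176, 218 and 625, where the highest value is the library labelled MDA 1. With it the log2 change was -0.52 (adjusted p = 0.0681), and without the 3 libraries -0.86 (adjusted p = 0.000156). Against all 17 vehicles, with all libraries, it was called (-0.53, adjusted p = 0.0355), though not without the filter on low counts or in 1 model over 57 samples (adjusted p 0.0529 and 0.166). Against Ctrl it was also called with all libraries under library totals, in limma and with the range of numbers as a covariate (adjusted p 0.0419, 0.0139 and 0.0186). APAP stood at -1.78 without APAP 1.

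Ces1c, whose product circulates in plasma, fell with every compound but ConA when set against the route vehicle. It read 1178, 1519 and 1826 CPM in Ctrl mice, 1538 and 1288 in CIP and 1425 and 1581 in CIV. GAL gave 659, 661, 565 and 606 CPM and CCl4 505, 580.2 and 805. Those groups lay below all vehicle mice (log2 -1.25 ± 0.14 and -1.21 ± 0.17). APAP gave 303, 867 and 1382 (log2 -0.78 ± 0.23, adjusted p = 0.015), ANIT 1221, 1028, 997 and 1069 (-0.46 ± 0.12, 0.00764) and MDA 847, 987 and 1451 (-0.45 ± 0.12, 0.00427). Each of these groups overlapped Ctrl, and without the 3 libraries the changes were -1.02, -0.53 and -0.50. TAA gave 1447, 953, 1029, 951 and 1275 (log2 -0.35 ± 0.13, adjusted p = 0.0276), a call lost without TAA 3, 6 or 7 in turn (adjusted p 0.0867, 0.0819 and 0.0776). In 1 model over 57 samples the ANIT and TAA calls were lost (adjusted p 0.129 and 0.0902). ConA gave 511, 1054 and 1364, all below both CIV mice but not called (log2 -0.59, 95% interval -1.19 to 0.02); against all 17 vehicles it was called at -0.49 ± 0.13.

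Ces1b took different directions with different compounds. It read 47.1, 58.5 and 70.8 CPM in Ctrl mice, 61.98 and 65.2 in CIP and 73.4 and 72.99 in CIV. In mice 1 to 4 given ANIT it read 52.5, 106, 79.4 and 106 CPM, so mice 2, 3 and 4 lay above every vehicle mouse and the library labelled ANIT 1 within their range. The rise was 1.43-fold (log2 0.51 ± 0.13, adjusted p = 0.00882), 0.68 on the log2 scale without ANIT 1 (adjusted p = 0.000194). It was lost without ANIT 2 or ANIT 4 (adjusted p 0.0567 and 0.0583) and under library totals, with all 4 libraries, at 0.29 (adjusted p = 0.279). It was lost as well in 1 model over 57 samples (0.51, adjusted p = 0.105) and with only the mice numbered 1 to 4 (0.56, adjusted p = 0.135).

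With MDA, Ces1b read 36.8, 44.9 and 134 CPM, and the highest value, again above every vehicle mouse, is the library labelled MDA 1. The log2 change was -0.05 with that library (adjusted p = 0.873) and -0.41 without it (adjusted p = 0.00155). APAP gave 13.2, 21.7 and 43.4 CPM and GAL 22.8, 21.4, 18.3 and 16.4. Both groups lay below all vehicle mice (log2 -1.20 ± 0.20, or -1.47 without APAP 1, and -1.75 ± 0.18). TAA gave 54.6, 34.4, 41.6, 41.6 and 46.8 and was called at -0.42 ± 0.11, though not in 1 model over 57 samples (adjusted p = 0.0703). CCl4 gave 27.5, 38.9 and 60.4, called against all vehicles (-0.63 ± 0.11, although -0.09 and not called under library totals) and not against CIP (adjusted p = 0.0583; DESeq2 0.0228 and limma 0.0491). ConA gave 38.6, 59.7 and 67.1 and did not pass against CIV (log2 -0.35, 95% interval -0.81 to 0.10).

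Ces2a and Ces2c, the class 2 members, were the members with a positive change with MDA. Ces2a read 169, 239 and 312 CPM in Ctrl mice, 239.6 and 189 in CIP and 265 and 194 in CIV. CCl4 gave 50.2, 65.96 and 97.98 CPM and GAL 83.1, 71.7, 78.5 and 68.8. These groups lay below all vehicle mice, 3.11-fold and 2.97-fold under CIP (adjusted p = 0.000313 and 0.00267). APAP gave 39.4, 117 and 185 (log2 -1.06 ± 0.27; -1.31 without APAP 1) and TAA 237, 125, 105, 96.5 and 139 (-0.71 ± 0.20), both called. MDA gave 166, 254 and 406 and was not called (log2 0.21, 95% interval -0.08 to 0.49; 0.30 without MDA 1). ANIT gave 404, 156, 147 and 146 in mice 1 to 4, where the library labelled ANIT 1 was above every vehicle mouse and the others below every Ctrl mouse. The log2 change was -0.15 with it (adjusted p = 0.689) and -0.66 without it (adjusted p = 0.00975). ConA gave 47.9, 156 and 276, not called against CIV (95% interval -1.44 to 0.36) and called at -0.49 ± 0.20 against all vehicles.

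Ces2c, which hydrolyses acylglycerols and shares much of its sequence with a pseudogene, read 28.7, 40.1 and 59.03 CPM in Ctrl mice, 45.1 and 32.7 in CIP and 59.4 and 43.2 in CIV. MDA gave 30.3, 53.2 and 79.95, where the lowest value is the library labelled MDA 1. This was the rise counted for MDA, 1.46-fold (log2 0.55 ± 0.17, adjusted p = 0.0155) or 0.66 without MDA 1. It was lost without MDA 8 (adjusted p = 0.0599), under library totals (0.48, adjusted p = 0.0721), in 1 model over 57 samples (0.54, adjusted p = 0.0818) and with only the mice numbered 1 to 4 (0.32, adjusted p = 0.443). ConA gave 9.60, 14 and 21.7, wholly below the vehicle mice (log2 -1.77 ± 0.31, adjusted p = 0.00177).

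For Ces2c the APAP mice split: mice 8 and 11 read 51.2 and 41.4 CPM and mice 1, 2, 4 and 6 read 11.5, 15.4, 9.05 and 18.6. Mice 8 and 11 were thus the highest for Ces2c, whereas they were the lowest in the group for 8 of the other 9 members, all but Ces1b. The APAP change was not called against Ctrl (log2 -0.69, adjusted p = 0.0813), and was called without APAP 8 (-1.05, adjusted p = 0.00848) or APAP 11 (-0.89, adjusted p = 0.0374), and with all mice in limma and in 1 model over 57 samples (adjusted p 0.0152 and 0.027). Without APAP 1 it was -0.56 (adjusted p = 0.182), and with only the mice numbered 1 to 4 it was -1.70 (adjusted p = 0.0114). GAL gave 36.5, 11.6, 11.1 and 14.6, with mouse 2 apart from the rest. With all mice it did not pass against CIP (log2 -1.15, adjusted p = 0.129), and of the mice left out in turn GAL 2 was the 1 without which it did (-1.70, adjusted p = 0.00264). It was called with all mice in 1 model over 57 samples (-1.14, adjusted p = 0.0394) and with only the mice numbered above 4 (-1.68, adjusted p = 0.0102). ANIT gave 44.6, 42.8, 29.2 and 40.1, TAA 31.4, 45.1, 27.2, 20.2 and 38.96 and CCl4 24.3, 31.5 and 41.04, none of them called against the route vehicle. Their 95% intervals on the log2 scale were -0.41 to 0.31, -0.66 to 0.11 and -0.65 to 0.05, and the ANIT value was -0.12 without ANIT 1.

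Ces3b, the close copy of Ces3a, was called lower with 5 compounds against the 7 of Ces3a; the difference between the 2 genes was not tested. It read 136, 273 and 481 CPM in Ctrl mice, 315 and 227 in CIP and 223 and 189.9 in CIV. CCl4 gave 25.6, 37.2 and 66.9 CPM and GAL 122, 106, 129 and 112. Both lay below CIP, CCl4 by 6.30-fold (log2 -2.66 ± 0.29, adjusted p = 0.000141), the most negative of any member with CCl4, and GAL by 2.42-fold (adjusted p = 0.00591, or 0.0519 in 1 model over 57 samples). ConA gave 107, 226 and 377 and was not called (log2 0.20, 95% interval -0.59 to 0.99), and its value against all vehicles was -0.13. This rested on scaling, since under library totals the latter was called lower (-0.81, adjusted p = 0.000558). ANIT gave 119, 175, 115 and 138, MDA 83.8, 111 and 179 and APAP 49.5, 88.9 and 281, each overlapping Ctrl. All 3 were called, at -1.07 ± 0.31, -1.15 ± 0.25 and -1.17 ± 0.36, or -1.01, -1.25 and -1.66 without the 3 libraries; the ANIT call was lost without ANIT 3 (adjusted p = 0.0613). TAA gave 457, 142, 111, 125 and 174 and was not called (adjusted p = 0.292), while without TAA 1 the change was -1.03 (adjusted p = 0.00974).

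Compounds given by the same route were then compared directly, in 7 pairs with p-values adjusted over all genes within each. GAL and CCl4, both intraperitoneal, differed in 5 of 10 members. GAL was lower for 4 (22.2% of genes were called lower): Ces1f by 2.93-fold (log2 -1.55 ± 0.21, adjusted p = 0.000115), Ces1e by 2.69-fold, Ces1b by 2.05-fold and Ces1d by 1.92-fold. It was higher for Ces3b, 2.79-fold (log2 1.48 ± 0.23, adjusted p = 0.000319; 20.3% of genes were called higher), and no GAL mouse overlapped a CCl4 mouse for that gene. Of the others, the closest were Ces3a (95% interval -0.28 to 0.21) and Ces1c (-0.21 to 0.31).

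TAA and MDA differed in 4 members. TAA was lower for Ces1g (log2 -1.25 ± 0.21, adjusted p = 0.000586), with no overlap between mice, and for Ces2a (-0.94 ± 0.25, 0.0123) and Ces2c (-0.83 ± 0.25, 0.0215), where 14.3% of genes were called lower. It was higher for Ces3a (0.71 ± 0.23, 0.0332; 15.8% of genes). With the 3 libraries left out those values were -1.24, -1.03, -0.94 and 0.77, and Ces1f was called higher too (0.80, adjusted p = 0.0249). MDA was higher than APAP for 2 members (4.05% of genes were called higher), Ces1g (1.67 ± 0.38, 0.0154) and Ces2a (1.27 ± 0.34, 0.0318). Without the 3 libraries these were 1.76 and 1.59, and Ces1b joined them (1.04, adjusted p = 0.00816; 6.13% of genes).

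The remaining pairs involve ANIT or APAP. TAA was lower than ANIT for 3 members (11.1% of genes), Ces1b (-0.94 ± 0.23, adjusted p = 0.0133), Ces1e (-1.0 ± 0.29, 0.0285) and Ces1g (-1.10 ± 0.33, 0.0317). Without the 3 libraries Ces1g was not called (-0.78, adjusted p = 0.0866), Ces1d was (-0.75, adjusted p = 0.0365; 10.2% of genes), and Ces1b and Ces1e stood at -1.12 and -1.09; leaving out TAA 6 or ANIT 2 left 1 member called. APAP was lower than ANIT for 1 member (2.35% of genes), Ces1b (log2 -1.70 ± 0.34, adjusted p = 0.022; -2.16 without the 3 libraries), and for none when ANIT 2, 3 or 4 was left out.

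MDA and ANIT gave 0 of 10 members called by edgeR, as 0% of all 13360 genes were (1 member and 1253 genes at an unadjusted p under 0.05, 0 members by DESeq2). Without the libraries labelled ANIT 1 and MDA 1, 4 members were called: Ces1b (-1.10, adjusted p = 0.0057), Ces1d (-0.80, 0.0471) and Ces1e (-0.71, 0.0421) lower with MDA (2.47% of genes), and Ces2a higher (0.96, 0.02; 2.12% of genes). TAA and APAP also gave 0 members called by edgeR, where 2.62% of genes were called. At an unadjusted p under 0.05, 1 member and 2696 of 14013 genes passed, and DESeq2 called 0 members. Intervals were as wide as -0.37 to 1.99 for Ces1d. Without APAP 1, 1 member was called, Ces1b (1.02, adjusted p = 0.0161), where 7.99% of genes were called higher.

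**Figure D4:**
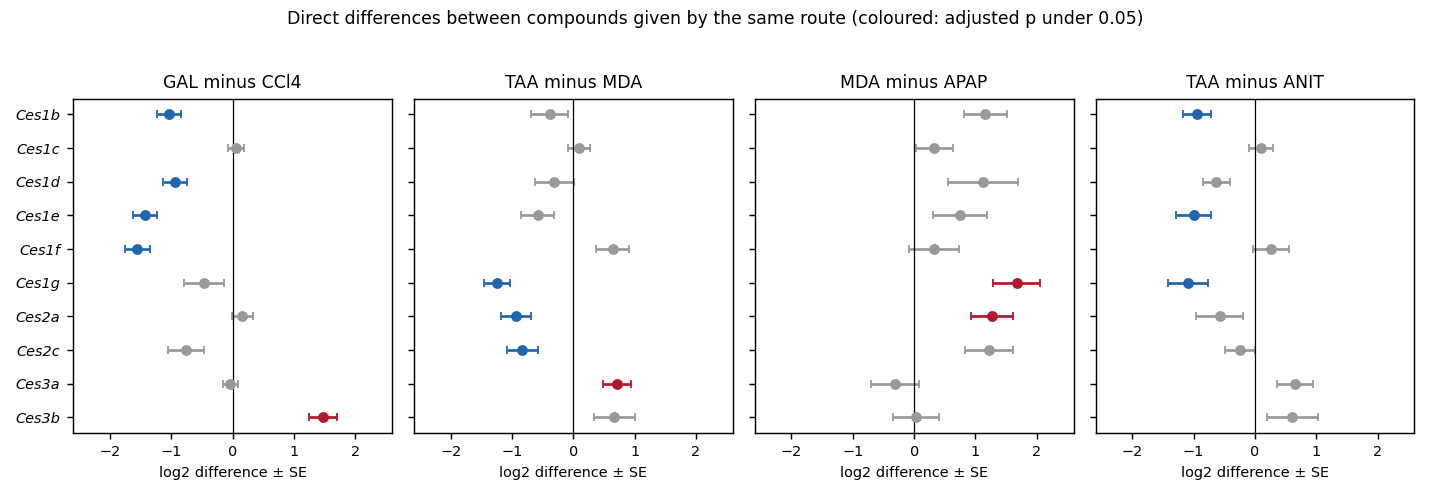
log2 difference (horizontal, ± SE) of each gene between compounds given by the same route, for the 4 pairs with at least 2 members called; blue and red mark an adjusted p under 0.05, lower and higher. Ces3b is the 1 gene called higher with GAL than with CCl4, and Ces1g and Ces2a are called in opposite senses in the panels of TAA minus MDA and MDA minus APAP.

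The make-up of the summed level differed between groups. Ces3a held 34.1 ± 1.79% of the summed level in vehicle livers (SD, n = 17) and Ces1c 30.4 ± 1.70%. With ANIT the Ces3a share was 18.1 ± 1.32% and the Ces1c share 38.7 ± 2.77%, and with MDA they were 18.03 ± 1.99% and 40.2 ± 1.85%. The order of the leading pair was thus the other way round in those groups, and Ces1d with ANIT (12.8 ± 3.00%, against 8.32 ± 1.07% in vehicles) and Ces2a with MDA (10.4 ± 2.58%, against 4.78 ± 0.557%) took larger parts. Without MDA 1 the Ces2a share with MDA was 11.3 ± 0.802%, and without ANIT 1 the Ces1d share with ANIT was 14.3 ± 0.615%; the Ces3a and Ces1c shares were then 17.9 ± 1.52% and 38.4 ± 3.31% with ANIT and 18.1 ± 2.16% and 40.8 ± 1.13% with MDA. With APAP they were 27.2 ± 5.77% and 43.3 ± 4.65%, or 26.6 ± 6.27% and 43.6 ± 5.09% without APAP 1. Ces1c held the largest mean share in every compound group, up to 43.6 ± 2.53% with GAL. Ces3b ranged from 2.71 ± 1.00% with CCl4 to 9.14 ± 2.12% with ConA, and Ces1f from 3.65 ± 0.893% with ConA to 10.3 ± 1.23% with CCl4. These shares describe the groups and were not tested.

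**Figure D5:**
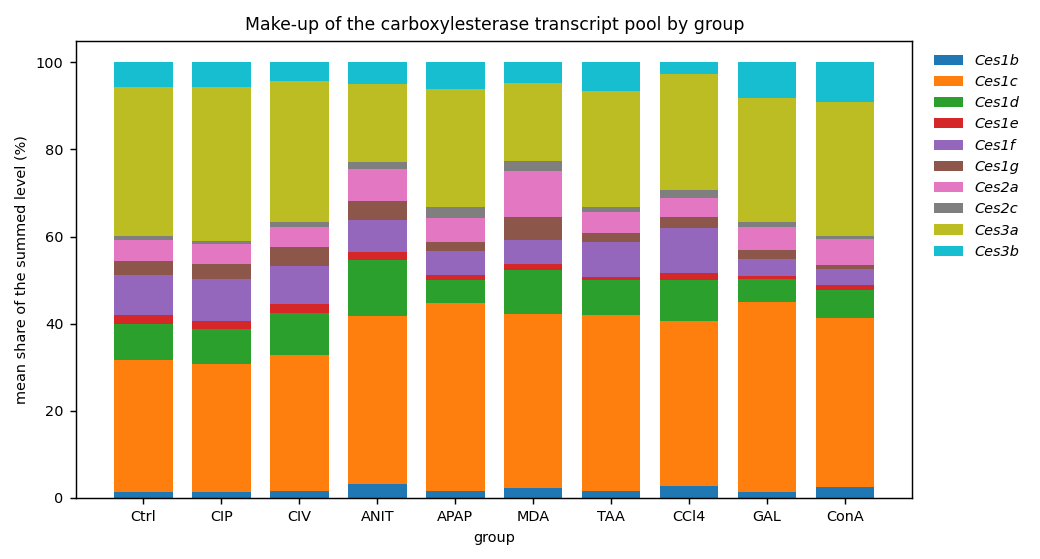
Mean share (%) of each gene in the summed level of the 10 carboxylesterases, by group; each stacked bar adds to 100. Ces3a leads in the vehicle groups and Ces1c in each compound group, and Ces3b is smallest with CCl4.

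Of 10 further carboxylesterase genes, 5 were too low to be tested against any route vehicle (Ces2b, Ces2d-ps, Ces2f, Ces2h and Ces5a). Ces2e and Ces2g, class 2 esterases, were called lower with each of the 7 compounds. Ces2e went from a mean of 156 CPM in CIP to 41.7 with CCl4 and had log2 changes from -1.92 with CCl4 to -0.91 with APAP. Ces2g went from 38.6 CPM in CIV to 9.37 with ConA and ranged from -2.02 with ConA to -0.70 with MDA. Ces1h and Ces1a, near absent from vehicle liver, went the other way: Ces1h was listed at 0 in both CIP mice and read 0.923 to 1.56 CPM with CCl4 and 0.251 to 0.582 with GAL, called higher in both. Ces1a was called higher with GAL, at 0.559 to 1.16 CPM against 0 and 0.149 in CIP. Against a route vehicle, both genes passed the filter on low counts only in these comparisons, and only through the compound mice. Their calls thus follow in part from the filter and describe levels near the floor. Ces4a, at a mean of 0.783 CPM in vehicle livers, was tested with 5 compounds and called lower with MDA. Against all 17 vehicles it was tested with 7 and called lower with 3 (log2 changes from -4.27 to 0.50).

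The other ester and lipid hydrolases of liver did not move in 1 direction. Of 19 genes, all tested, those called lower and higher numbered 9 and 3 with GAL, 8 and 4 with CCl4, 7 and 6 with TAA, 7 and 4 with APAP, 5 and 3 with ConA, 5 and 5 with ANIT and 4 and 4 with MDA. Of all genes, 15.7% and 12.8% were called lower and higher with GAL, 15.6% and 18% with CCl4, 24% and 26.4% with TAA, 14.6% and 17.3% with APAP, 17.3% and 16.8% with ConA, 14.2% and 14% with ANIT and 16.4% and 17.4% with MDA. Without the 3 libraries the counts were 6 and 5 with ANIT, 7 and 4 with APAP and 5 and 2 with MDA. The median log2 change ran from -0.69 with GAL to 0.06 with MDA. Aadac, arylacetamide deacetylase, another drug-hydrolysing enzyme of the endoplasmic reticulum, was called lower with all 7, from -0.71 with MDA to -2.67 with GAL. Acot2, a mitochondrial acyl-CoA thioesterase, was called higher with all 7, from 0.79 with MDA to 3.65 with CCl4. Pnpla3, a lipid droplet hydrolase that falls with fasting, was called lower with APAP, ANIT, TAA and ConA, from a mean of 6.45 CPM in Ctrl to 0.193 with TAA, and was listed at 0 in the ConA livers.

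Among 10 regulators of drug-metabolising genes, 7 were called lower and 0 higher with CCl4, 7 and 2 with TAA, 4 and 0 with APAP, 3 and 1 with GAL and ConA, 2 and 3 with MDA and 1 and 3 with ANIT, beside the same shares of all genes. Against all 17 vehicles the counts with GAL were 8 and 1 (27.5% and 25.1% of genes). Without the 3 libraries they were 6 and 0 with APAP, 5 and 2 with MDA and 1 and 4 with ANIT, against the route vehicle. Cebpa, a hepatocyte differentiation factor, was called lower with 6 compounds, from -0.69 with APAP to -1.92 with CCl4, and stood at 0.03 with ConA. Nr1h4, the bile acid receptor FXR, was called lower with ConA (-1.89), TAA (-1.41), CCl4 (-1.0) and APAP (-0.76). Nr1i3, the xenobiotic receptor CAR, was called lower with those same 4 compounds, down to -2.27 with ConA, and higher with ANIT (0.75, adjusted p = 0.0362). Their part in the carboxylesterase levels was not tested.

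Hepatocyte markers moved with some of these results. The summed CPM of 7 hepatocyte markers had a median of 88122 in vehicle livers (75873 to 150971), 38644 with CCl4 (35770.5 to 45144) and 35850.5 with GAL (34609.8 to 42749.7), where 6 and 7 of the 7 were called lower with the 2 compounds in turn. In the other 5 compounds the medians lay between 78715 and 96064, with 1 marker called lower in each and 1 higher with APAP, MDA and TAA, and the ranges overlapped the vehicles. The sum of 5 pericentral hepatocyte markers had a median of 4192 in vehicles (3192 to 5309.7), 679 with APAP (84.8 to 3767) and 734 with CCl4 (611 to 1036), with 4 of 5 called lower in both, as also with GAL, and all 5 with APAP without the 3 libraries. That of 5 periportal markers was 2964 in vehicles (1911 to 3623), 545 with GAL (535 to 794), 725 with CCl4 (552 to 911) and 819 with TAA (641 to 1469), with all 5 called lower in each. With ConA it was 1559 (701 to 1880.0), again wholly below the vehicles, with 3 of 5 called lower, and with APAP 1654 (929.6 to 2442), also 3 of 5. The pericentral sum was 2063 with MDA (1266 to 5878) and 2605 with TAA (1560.4 to 5452), overlapping the vehicles, with 3 of 5 called lower in each. In the comparisons not yet named, 2 periportal markers were called lower with ANIT and with MDA, and 1 pericentral marker with ANIT and with ConA. Without the 3 libraries, 4 periportal markers were called lower with APAP and 4 pericentral ones with MDA. With ANIT, 2 hepatocyte and 2 pericentral markers were then lower and 1 pericentral marker higher, and with APAP 0 hepatocyte markers higher. No marker of these 3 lists was at 0 in every mouse of a group, and the part of these shifts in the carboxylesterase levels was not tested.

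Markers of the other cell types differed as well. The neutrophil sum had a median of 5.58 CPM in vehicles (2.07 to 60.9), 306 with TAA (160.2 to 834) and 222 with ConA (124 to 285), with 5 and 3 of its 5 genes called higher in turn, 4 with GAL and 1 to 3 with the other 4 compounds. For 5 Kupffer cell markers the median was 289 in vehicles (155 to 441) and 29.2 with ConA (21.03 to 44.9), all 5 called lower; 1 was called higher with GAL, and 1 or 2 lower with each of the others. The sum of 5 monocyte and macrophage markers was 114 in vehicles (53.02 to 185), 237 with GAL (179 to 302) and 188 with APAP (105 to 336), with 2 and 4 called higher, as were 2 each with CCl4 and TAA, while 2 were called lower with ANIT and 1 with ConA. Every TAA and ConA mouse lay above every vehicle mouse in the sum of 4 cholangiocyte markers, 6.08 in vehicles (3.796 to 10.05), 18.2 with TAA (12.1 to 26.4) and 40.7 with ConA (31.8 to 68.4), 2 called higher in each. That sum was 6.61 with ANIT (2.73 to 11.7) and 7.12 with MDA (4.42 to 12.9), overlapping the vehicles, with 1 higher and 1 lower in the former, 1 higher in the latter and 1 higher with APAP.

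The 4 endothelial cell markers summed to 99.4 CPM in vehicles (82.1 to 139), against 42.95 with ConA (29.2 to 63.5), 47.2 with TAA (41.3 to 76.1) and 61.3 with CCl4 (46.9 to 73.1), each wholly below the vehicles. Of these genes 2, 3 and 3 were called lower in turn, and 1 was called higher with ConA and 1 with TAA; 2 were called lower with ANIT and with MDA, and 1 lower and 1 higher with APAP. For 4 stellate cell markers the sum was 63.5 in vehicles (30.6 to 165) and 171 with ConA (118 to 289), with 1 called lower there and 1 with CCl4, 2 lower with ANIT and with MDA, 2 higher and 1 lower with TAA and 1 higher with APAP. The T and NK cell sum was 2.96 in vehicles (1.006 to 13.7), overlapped by every compound group (1.11 to 8.19 with ConA), with 1 gene called lower with ANIT, MDA and TAA. The B cell sum was 2.14 in vehicles (0.863 to 4.27), 8.42 with TAA (3.29 to 11.1, 3 of 4 called higher) and 0.441 with ANIT (0.122 to 2.09, 2 called lower, as with MDA), and Ms4a1 was listed at 0 in every ANIT mouse. No other marker was at 0 throughout a group. Without the 3 libraries some of these counts changed. With ANIT, 0 neutrophil, 0 stellate and 0 T and NK markers were called, 1 Kupffer cell marker lower and 0 cholangiocyte markers lower. With APAP, 0 stellate markers were called and 2 endothelial markers lower, and with MDA 3 neutrophil markers higher. The part of these markers in the carboxylesterase results was not tested.

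Across the 57 livers the levels of the members rose and fell together to differing degrees. Over their 45 pairs the median Pearson r of log2(CPM + 1) was 0.714, highest for Ces1e with Ces1f (0.919) and lowest for Ces2c with Ces3b (-0.04). The points share library and group, so these are descriptions. Among 8021 genes outside the family, the pattern of Ces1e was most like that of Acsm1 (r = 0.950) and Prodh2 (0.945), that of Ces1f like Inmt (0.947) and Hgd (0.914), and that of Ces1d like Hgd (0.940) and Hpd (0.904). Ces1c was most like Hpd (0.888) and C8g (0.882), Ces1g like Ndrg2 (0.944) and Pbld2 (0.941), and Ces1b like Asl (0.848) and Mgst1 (0.811). Ces3a was most like Alas2 (0.936) and Lipc (0.928), whereas Ces3b was most like the apolipoprotein genes Apoc1 (0.911) and Apoa2 (0.892). Ces2a was most like Serpinc1 (0.906) and Asgr2 (0.893), and Ces2c like Cers2 (0.849) and Erg28 (0.808).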

How the data were processed

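Bulk RNA sequencing (TruSeq stranded mRNA, single-end) measured 57 perfused mouse livers. The deposited table holds estimated counts per Ensembl gene; per the submitters' processing notes the authors used Salmon 1.6.0, R 4.1.3 and build GRCm39, with the annotation and strand setting not given in the sources used here. The smallest value of a gene fell with transcript length (Spearman -0.93 over 5285 genes with 1 transcript, a correlation across genes), so values behave as amounts per length scaled to the library total, not as plain reads. Symbols were matched for 51482 of 54307 IDs; columns of no sample numbered 0.

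Counts were rounded and tested per comparison with edgeR 4.0.16 (quasi-likelihood, TMM, filterByExpr, two-sided, Benjamini-Hochberg over all genes, threshold 0.05) in R 4.3.3; levels are CPM with TMM factors over all 57 samples. Alternatives were library totals, DESeq2 1.42.0, limma 3.58.1 on log2(CPM + 1), no filter, 1 model over 57 samples, the range of replicate numbers (1 to 4 against above 4) as a covariate or split, a replicate block, and libraries left out. The code was tested on simulated data. Intervals are the estimate ± 1.96 SE, which is narrow where groups hold 2 mice and can leave out 0 when the test does not pass. Replicates are the mice named singly in the labels. The same replicate number did not pair mice: no comparison sharing 2 or more numbers had every same-numbered pair above a correlation of 0.1. Members and lists were chosen with earlier results of these data known. All 10 members are named, with other carboxylesterases called in at least 5 of 7 route comparisons or against most members, the 3 genes of each of 2 further lists with the largest absolute median change, and the 2 most similar genes per member. Ces4a and the 5 untested carboxylesterases, and the groups given for each marker list, were named after their values were seen, as were the libraries left out by name.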

Additional observations from a re-analysis of the deposited data

Results flagged for a closer look

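Of 70 pairs of a gene and a group with 4 to 10 mice, 11 held a mouse far from the rest by Dixon's ratio on CPM. Chance alone marks about 1 in 20 groups. The library labelled MDA 1 was high for Ces1b (134 CPM) and Ces1d (625 CPM), and MDA 2 was high for Ces1g (171 CPM). The library labelled ANIT 1 was high for Ces2a (404 CPM). Mouse 1 of TAA was high for 4 members, Ces1e (45.7 CPM), Ces1f (414 CPM), Ces3a (1347 CPM) and Ces3b (457 CPM). Mouse 2 of GAL was high for Ces1d (112 CPM) and Ces2c (36.5 CPM). Mouse 10 of CCl4 was low for Ces3a (304 CPM). In edgeR, 0 of 30 tests of whether a compound's effect on a member differed between mice numbered 1 to 4 and those numbered above 4 passed after adjustment over all genes (2 at an unadjusted p under 0.05). Over all genes, 0 of 13939 passed for APAP, 0 of 13522 for MDA and 16 of 14360 for TAA. No other tool was run for these.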

How the results depend on the processing

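Over all alternatives, 1548 of the members' values stayed on their side of the threshold (values not called could change sign), 97 lost a call, 44 gained one and 1 called value changed sign (Ces2c with CCl4 against all vehicles, 0.0939 under library totals in log2 fold change); 241 counts of called members stayed within 1.5 times, 22 fell below and 6 rose above. No numbering in the labels paired the mice, and the replicate block, with the number as a factor, called 0 members for APAP against Ctrl, 0 for APAP against ANIT, 0 for TAA against ANIT, 0 for MDA against APAP and 2 for TAA against MDA. Besides APAP, and as log2 change and adjusted p, it ended the calls against the route vehicle of Ces1b (0.53, 0.089) and Ces1c (-0.61, 0.0535) with ANIT, Ces2c with MDA (0.62, 0.0738), and Ces1b (-0.31, 0.256) and Ces1c (-0.38, 0.0789) with TAA, and it called Ces3b with TAA (-0.86, 0.048) and Ces2c with GAL (-1.64, 0.0245). Against all vehicles it ended those of Ces2c with APAP, MDA and CCl4, Ces1b with TAA and Ces2a with ConA, and called Ces3b with TAA. No paired analysis was possible for CCl4 against CIP, ConA against CIV or GAL against CCl4 because these share only 1 number. Among mice numbered 1 to 4 the vehicle mice are 4 Ctrl mice, so Ctrl and all vehicles give the same fit. The totals above count the values of ANIT, APAP, MDA and TAA under both. With these mice alone, 6 members were called for APAP, 4 for MDA and 1 for TAA (Ces1e). Against the route vehicle these mice alone lost the calls of Ces1b, Ces1c, Ces2a and Ces3b with APAP, Ces1c and Ces2c with MDA and Ces1b with ANIT, and called Ces2c with APAP. The mice numbered above 4 alone lost Ces1d with APAP and Ces3a with ConA and called Ces1b and Ces1d with MDA and Ces2c with GAL. The range of numbers as a covariate left 0 for APAP and 0 for TAA against ANIT, and called Ces1d with ANIT and MDA against Ctrl and Ces3b with TAA against all vehicles. DESeq2 called 2 for APAP against ANIT, 4 for MDA against APAP (limma also 4) and 3 within Ctrl, where library totals and no filter called 0. Without the 3 libraries that stand apart, 4 were called for MDA against ANIT and 1 for TAA against APAP. Leaving out 1 mouse at a time gave 0 to 1 for APAP against ANIT, 1 to 4 for TAA against ANIT and 0 to 0 within Ctrl. For the block, the splits by number, the covariate, DESeq2, limma, no filter and single mice left out, the share of all genes called was not taken. Changes among the members alone can thus not be told there from changes over all genes. The causes of these changes were not tested, and with 2 mice in CIP and in CIV their number limits the precision.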
